A study of Mus musculus with 8 samples.

Results

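The granzyme genes of one cluster and the proliferin genes of another were described in cultured mouse fibroblasts that lack Cbx2. They are the 3 granzyme genes Gzmc, Gzmd and Gzme and the 2 proliferin genes Prl2c2 and Prl2c3. These 5 of the 17441 genes in a deposited table were taken by symbol and had been selected on their knockout and wild-type values in that same table, so everything given below on the 5 genes themselves is a description. The cells were primary embryonic fibroblasts, collected at embryonic day 18 and used at passage 2. In the Cbx2 knockout (Cbx2-/-) a targeted deletion removes Cbx2, a chromodomain subunit of polycomb repressive complex 1, in every cell. Wild-type littermates were the controls. RNA came from 2 libraries per genotype, and nothing in the labels says whether these came from separate embryos or cultures, so p-values measure only the spread between these libraries. Chromatin accessibility libraries, 2 per genotype, were not analysed here. The table holds 1 normalised read value per genotype, and the values sum to 18910077 in knockout and 19428299 in wild type. Cbx2 itself was listed at 29.0 in knockout and 346.8 in wild type in the authors' deposited table. Fibroblast identity genes were abundant in both genotypes, with values of 16 genes from 258 to 227630 in knockout and from 620 to 264489 in wild type.

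Granzymes are serine proteases of the chymotrypsin fold. They are best known from the granules of cytotoxic lymphocytes, where perforin lets them enter a target cell, the protease cathepsin C removes their propeptide, serglycin holds them in the granule and serpins inhibit them. In the mouse, granzymes B to G and N lie in a single cluster with the mast cell proteases and chymases on chromosome 14. Proliferins are secreted glycoprotein hormones of the prolactin family. They are made in large amounts by trophoblast giant cells, promote the growth of blood vessels, and were first found as messages that serum growth factors induce in cultured mouse fibroblasts. They bind the cation-independent mannose 6-phosphate receptor, Igf2r.

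The upstream sequences show how closely the members are related to each other and to relatives with hardly any reads. RefSeq (GRCm38.p6) gives the 250 bases before a listed start of 4 of the 5 members, all but Prl2c2. For Gzmc, Gzmd and Prl2c3 that start lies inside the span that the annotation gives the gene, and the same holds for the relative Prl2c5. Their windows therefore overlap the annotated genes, and that of Gzmc lies wholly inside. They are printed 5′ to 3′ in the direction of transcription for these 4 genes and for Gzmg and Prl2c5, the relatives with hardly any reads, and lie at chr14:56234658-56234907, chr14:56132594-56132843, chr14:56120626-56120875 and chr14:56159580-56159829 on the minus strand, chr13:12800080-12800329 on the minus strand and chr13:13182466-13182715 on the plus strand. Capitals mark 3 kinds of match, the cAMP response element TGACGTCA or a stretch 1 base from it, the AP-1 element TGANTCA, and the Runx element AACCACA.
Gzmc: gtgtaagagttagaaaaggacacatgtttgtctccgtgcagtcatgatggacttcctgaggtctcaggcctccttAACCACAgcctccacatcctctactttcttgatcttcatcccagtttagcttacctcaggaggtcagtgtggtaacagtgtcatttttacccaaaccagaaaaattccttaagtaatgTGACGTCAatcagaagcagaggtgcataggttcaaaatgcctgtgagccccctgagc
Gzmd: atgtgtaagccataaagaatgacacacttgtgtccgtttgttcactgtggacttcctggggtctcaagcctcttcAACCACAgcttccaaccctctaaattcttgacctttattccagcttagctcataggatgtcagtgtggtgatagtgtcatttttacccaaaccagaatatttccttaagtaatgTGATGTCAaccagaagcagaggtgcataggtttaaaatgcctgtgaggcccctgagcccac
Gzme: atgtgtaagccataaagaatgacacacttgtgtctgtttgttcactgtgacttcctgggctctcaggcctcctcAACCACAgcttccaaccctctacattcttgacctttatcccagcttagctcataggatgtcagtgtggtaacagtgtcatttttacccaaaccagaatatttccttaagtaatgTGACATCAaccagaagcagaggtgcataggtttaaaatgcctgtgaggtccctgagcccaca
Gzmg: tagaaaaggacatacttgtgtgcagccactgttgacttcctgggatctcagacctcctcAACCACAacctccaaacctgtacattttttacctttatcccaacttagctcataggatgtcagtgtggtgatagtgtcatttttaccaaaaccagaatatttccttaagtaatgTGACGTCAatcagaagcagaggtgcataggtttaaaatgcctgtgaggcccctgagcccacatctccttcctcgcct
Prl2c3: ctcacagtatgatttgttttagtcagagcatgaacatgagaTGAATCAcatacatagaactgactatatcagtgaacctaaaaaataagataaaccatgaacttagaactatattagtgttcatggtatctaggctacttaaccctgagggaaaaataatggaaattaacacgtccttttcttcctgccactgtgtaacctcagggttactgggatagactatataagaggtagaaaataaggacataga
Prl2c5: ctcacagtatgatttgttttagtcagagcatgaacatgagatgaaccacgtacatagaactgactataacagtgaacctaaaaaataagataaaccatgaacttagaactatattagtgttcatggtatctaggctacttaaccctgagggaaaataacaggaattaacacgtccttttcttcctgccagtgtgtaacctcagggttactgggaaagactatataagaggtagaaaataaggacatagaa
In a global alignment the windows of Gzmd and Gzme were 94.8% identical, those of Gzmc and Gzmd 81.3%, those of Gzmc and Gzme 81.8%, and those of Prl2c3 and Prl2c5 96.0%. The windows of Gzmc and Prl2c3, genes of different families, were 51.4% identical in the same alignment. All 4 granzyme windows held AACCACA, which 4.40% of 32851 RefSeq windows of this length hold on either strand. TGACGTCA, held by 1.55% of windows, was found in Gzmc and Gzmg. At the same place Gzmd has TGATGTCA, which differs by C4T, and Gzme has TGACATCA, which differs by G5A, with positions counted from 1 at the first base of the element. TGANTCA, with any base at N and held by 6.75% of windows, was found in Prl2c3 (as TGAATCA) and not in Prl2c5. At the same place Prl2c5 has TGAACCA, which is 1 base from TGANTCA and is not marked. Stretches 1 base away were marked for the cAMP response element only. TGACGTCA and TGANTCA read the same on both strands and did not overlap in these windows. These matches were looked for after the values were seen and are descriptions of sequence only.

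Gzmc (gene 14940, chr14:56231397-56241647), Gzmd (gene 14941, chr14:56129556-56132603) and Gzme (gene 14942, chr14:56117619-56120625) lie on chromosome 14, in mm10 coordinates of the RefSeq annotation. All 3 were higher in knockout fibroblasts. Gzme, by far the most abundant of them, had a value of 1865 in knockout and 882 in wild type, a log2 fold change of 1.08 (2.12-fold) in the authors' deposited table. Gzmd had 401 in knockout and 126 in wild type, a log2 fold change of 1.67 (3.19-fold) in the authors' deposited table, the largest of the 5. Gzmc, the granzyme of the lowest level, had 75.8 in knockout and 27.3 in wild type, a log2 fold change of 1.47 (2.78-fold) in the authors' deposited table. Whether more cells expressed a gene or each cell held more of its RNA cannot be told apart in bulk libraries. The standard errors implied by the deposited p-values were 0.082 for Gzme, 0.18 for Gzmd and 0.35 for Gzmc on the log2 scale.

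Deposited fold changes are pulled toward 0 where reads are few, and for genes with a mean value under 60 the whole reads of each library could be recovered from the table. Gzmc had 89 and 73 reads in the knockout libraries and 26 and 22 reads in the wild-type libraries. Scaled by library size these were 86.1 and 70.8 in knockout and 25.8 and 23.5 in wild type. Both knockout libraries therefore lay above both wild-type libraries, and their summed ratio was 3.18 (log2 1.67), larger than the deposited fold change. Of 516 genes with a mean of 40 to 60, 35.3% had both knockout libraries above both wild-type libraries. For Gzmd and Gzme the reads per library were not recovered, since too many sets of whole reads match a mean of that size.

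The proliferin genes Prl2c2 (gene 18811, chr13:12996120-13005393) and Prl2c3 (gene 18812, chr13:12790816-12800093) lie on chromosome 13. Both were higher in knockout as well. Prl2c3 (proliferin-2) had 179 in knockout and 106 in wild type, a log2 fold change of 0.75 (1.68-fold) with an implied standard error of 0.22 in the authors' deposited table. Prl2c2 (proliferin-1) had 76.6 in knockout and 37.0 in wild type, a log2 fold change of 1.05 (2.07-fold) with an implied standard error of 0.34 in the authors' deposited table. For Prl2c2 the recovered reads were 84 and 79 in knockout and 45 and 23 in wild type. Scaled, they were 81.3 and 76.6 in knockout and 44.7 and 24.6 in wild type, so the genotypes did not overlap while the wild-type libraries differed from each other by 1.82-fold. Only 10 of 516 genes with a mean of 40 to 60 had a wild-type ratio at least that large, and the median ratio was 1.16. The summed Prl2c2 reads gave a knockout to wild-type ratio of 2.28 (log2 1.19). Prl2c3 has a mean above the limit. Of 16 sets of whole reads that match its mean, 1 had library ratios up to 2.83-fold and a fold change near the deposited one, with 192 and 181 reads in knockout and 114 and 90 in wild type. Of genes with known reads 98.3% lie inside these bounds, and 29% of shifted decoy values also had such a set, so the reads of Prl2c3 are less certain than those of Prl2c2.

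**Figure D1:**
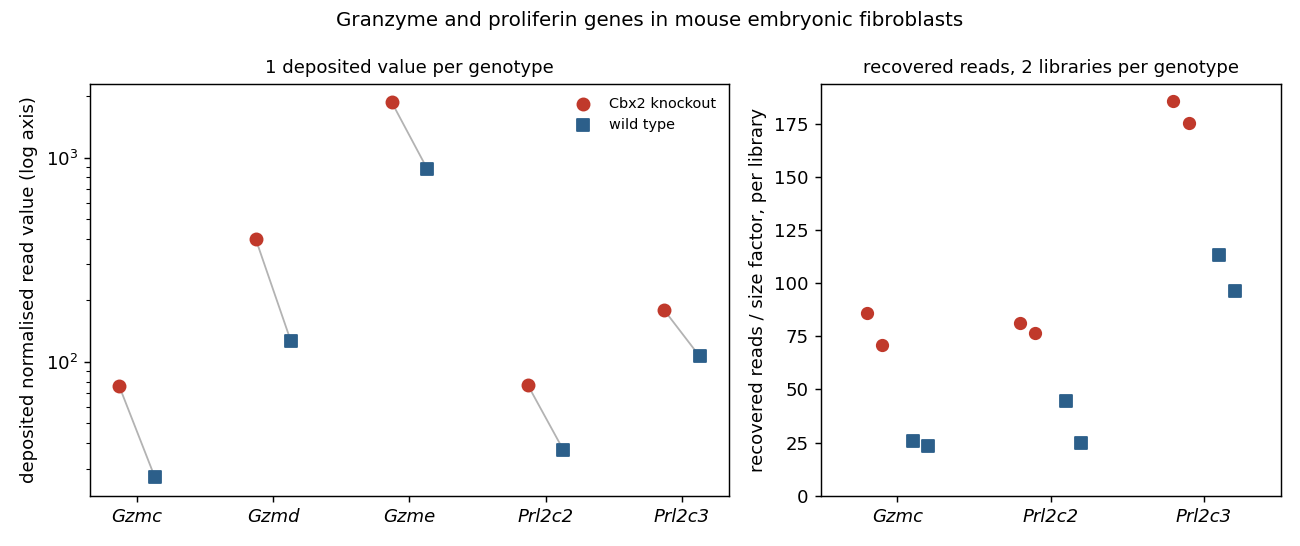
Left, the deposited normalised read value of each member (log axis) in Cbx2 knockout (red circles) and wild type (blue squares), 1 value per genotype joined by a line. Right, recovered reads divided by the size factor of each of the 2 libraries per genotype (linear axis), for the members where a set was found. All 5 genes lie higher in knockout, from 1.68-fold for Prl2c3 to 3.19-fold for Gzmd, and on the right the knockout points of Gzmc and Prl2c2 lie above the wild-type points of the same gene, as in 35.3% of genes with a mean of 40 to 60. The Prl2c3 set was picked partly by its fold change, so its separation follows from that choice.

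All 5 members carried a deposited adjusted p under 0.05 with a higher value in knockout, as did 3.48% of all genes, and 7.78% of all genes were called in either direction. The members were known to differ in this contrast, so nothing is read from that count. The authors' own mark, which also asks for a log2 fold change of 1 or more, was given to 4 of them and to 1% of all genes. Prl2c3 was the one without it. By size of rise among 17441 genes in the authors' deposited table, Gzmd ranked 56, Gzmc 94, Gzme 224, Prl2c2 237 and Prl2c3 508.

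Per kilobase of the listed gene length, the order of the levels was the same in both genotypes. Gzme had 2021 in knockout and 955 in wild type, at the 96.2 and the 91.3 percentile of all genes. Gzmd followed with 428 in knockout and 134 in wild type per kilobase, then Prl2c3 with 206 in knockout and 122 in wild type. Prl2c2 had 97.0 in knockout and 46.8 in wild type per kilobase. Gzmc came last with 80.5 in knockout and 29.0 in wild type per kilobase, at the 50.2 and the 38.5 percentile. In recovered reads per kilobase Prl2c3, Prl2c2 and Gzmc did not overlap with each other within a genotype. The Prl2c3 set was picked by bounds on fold change and library ratio, which also limit its spread, so its place is less certain. The lowest Prl2c2 library lay at 97.0 in knockout and 31.1 in wild type, and the highest Gzmc library at 91.4 in knockout and 27.4 in wild type. No spread was known for Gzmd and Gzme, so Gzmd and Prl2c3, which were close in wild type, could not be ordered beyond error there. Gzme made up 79.6% of the summed granzyme value in knockout and 85.2% in wild type. Reads of Gzmd and Gzme, and of the proliferins, could be divided between near-identical copies, so the split within each family is less certain than its sum. Summed, the 3 granzymes had 2343 in knockout and 1035 in wild type (2.26-fold), and the 2 proliferins 256 in knockout and 143 in wild type (1.78-fold).

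**Figure D2:**
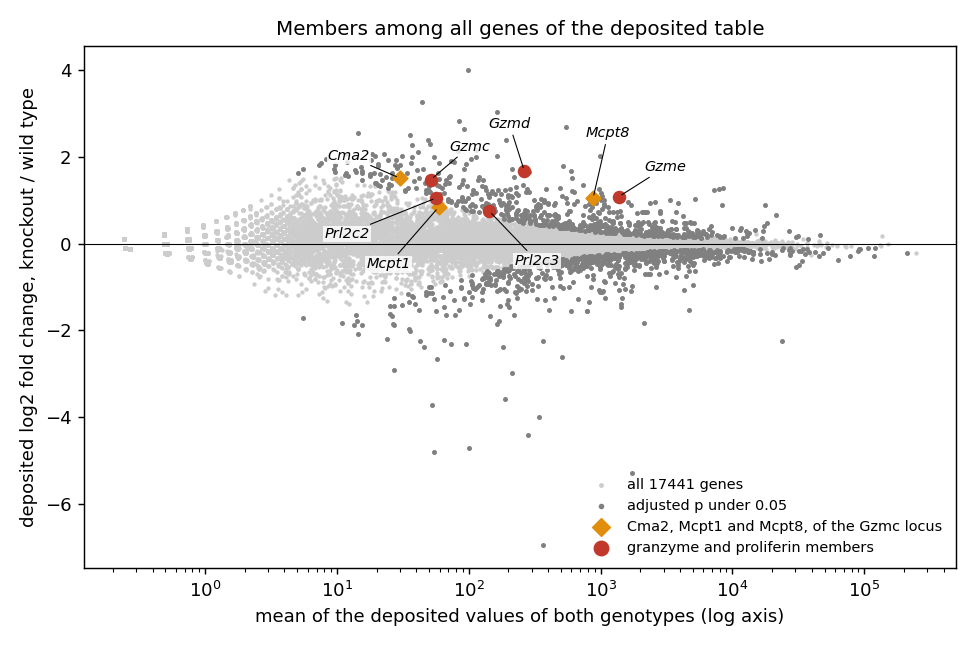
Deposited log2 fold change (knockout over wild type) against the mean of the values of both genotypes (log axis) for all 17441 genes, with genes past an adjusted p of 0.05 in dark grey. The 5 members (red) lie between 0.75 and 1.67, and Cma2, Mcpt1 and Mcpt8 (orange), which share a locus with the granzymes, between 0.84 and 1.51.

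The rises on chromosome 14 were not limited to the 3 granzymes. Between Cma1 and Gzmb (chr14:55941451-56262334, mm10) 16 genes had a value, 13 of them other than the members. Of these 13, 2 rose and none fell, against 3.48% and 4.30% of all genes. Mcpt8, a granzyme-like protease known from basophils, lies next to Ctsg in the locus. Mcpt8 had 1179 in knockout and 573 in wild type, a log2 fold change of 1.04 (authors' DESeq2 adjusted p 1.43e-23) in the authors' deposited table. Cma2, a chymase gene, had 44.4 in knockout and 15.6 in wild type, a log2 fold change of 1.51 (authors' DESeq2 adjusted p 0.00670) in the authors' deposited table. Its recovered reads were 46 and 51 in knockout and 10 and 15 in wild type. Mcpt1, a mast cell protease, did not pass, with a log2 fold change of 0.84 (authors' DESeq2 adjusted p 0.0945) in the authors' deposited table. Its reads were 88 and 72 in knockout and 41 and 38 in wild type, without overlap, as in 35.3% of genes with a mean of 40 to 60.

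Most other genes of the locus had very few reads. Gzmb, the main granzyme of cytotoxic lymphocytes, had 6 and 1 reads in knockout and 1 and 2 in wild type. Gzmg had 0 and 1 reads in knockout and 0 and 1 in wild type, and its upstream window is 78.9% identical to that of Gzmd and 79.4% to that of Gzme. Gzmn had 3 and 1 reads in knockout and 1 and 2 in wild type, and Mcpt2 had none in knockout and 1 and 0 in wild type. Mcpt9 had 9 and 10 reads in knockout and 0 and 4 in wild type, Ctsg (cathepsin G) 6 and 3 in knockout and 1 and 1 in wild type, and Cma1 (mast cell chymase) 6 and 3 in knockout and 1 and 0 in wild type. None of the genes with a mean value under 10, 9 in all, passed the authors' DESeq2 test, and none had an unadjusted p under 0.05. Above a mean of 10, a limit set after the values were seen, the locus had 7 genes, 3 of them the members, which had been selected for a higher value in knockout. Of the other 4, Cma2, Mcpt8 and Mcpt1 were higher in knockout, where 50.7% of all genes were. The exception was Gm5801, a transcribed pseudogene at 129 in knockout and 132 in wild type. The 13 non-members had a median log2 fold change of 0.51 in the authors' deposited table, with 10 of them above 0, against a median of 0.0036 over all genes.

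The neighbours outside the locus showed no such change. Of the 6 nearest measured genes before Cma1 none passed the authors' DESeq2 test, with log2 fold changes from -0.52 to 0.18 in the authors' deposited table. The 6 nearest after Gzmb had none past it either, with -0.43 to 0.35. At an unadjusted p under 0.05, 0 genes of these flanks passed. Granzymes outside the locus were hardly read. Gzmm had 8 and 6 reads in knockout and 6 and 7 in wild type, and Gzmk 1 and 1 in knockout and 1 and 0 in wild type.

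**Figure D3:**
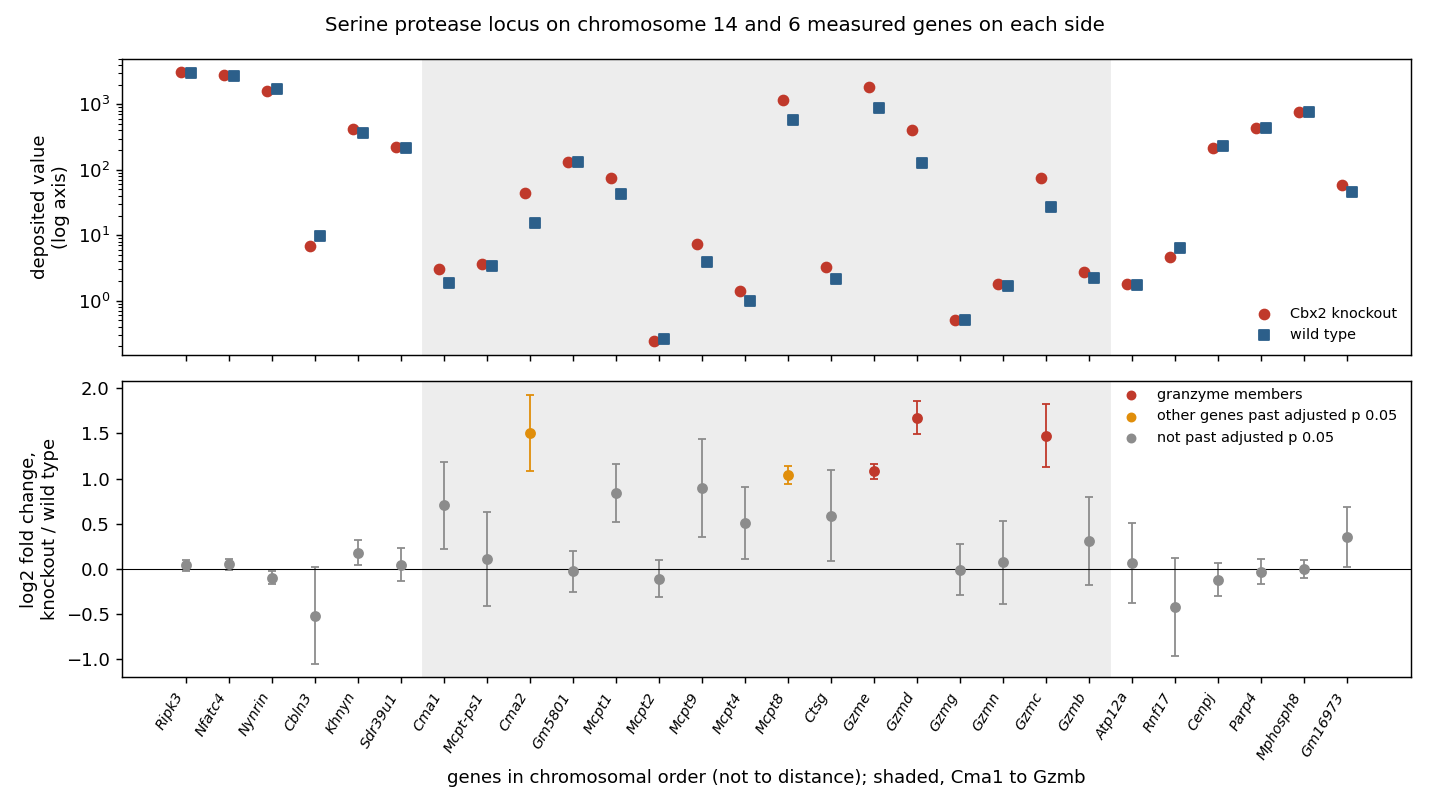
Deposited values (upper plot, log axis; Cbx2 knockout red circles, wild type blue squares) and log2 fold changes with 1 implied standard error on each side (lower plot) of the genes from Cma1 to Gzmb (shaded) and of 6 measured genes on each side, in chromosomal order. Within the shaded stretch Cma2, Mcpt8 and the 3 granzyme members lie between 1.04 and 1.67. The other genes of the stretch lie between -0.11 (Mcpt2) and 0.89 (Mcpt9). This overlaps the range of the flanking genes, which lie between -0.52 and 0.35.

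On chromosome 13 the proliferin locus (chr13:12790816-13191930, mm10) holds 3 measured genes. The third, Prl2c5 (proliferin-4), had 4 and 3 reads in knockout and 6 and 2 in wild type, far under the reads of Prl2c2 and Prl2c3 in both genotypes. On the far side of Prl2c5 the nearest measured gene, Gpr137b, a lysosomal membrane protein gene, rose with 341 in knockout and 221 in wild type, a log2 fold change of 0.62 (authors' DESeq2 adjusted p 0.00237) in the authors' deposited table. None of the 6 measured genes before Prl2c3 and none of the other 5 after Prl2c5 passed that test, and 1 of them, Lyst, had an unadjusted p under 0.05. Elsewhere in the prolactin family, 14 of 27 listed genes had a value. Of the 12 that are not members none passed the authors' DESeq2 test or had an unadjusted p under 0.05, and their values reached at most 3.59 in knockout and 3.85 in wild type. Prl, the pituitary hormone, had 2 and 3 reads in knockout and 4 and 3 in wild type. Prl3d1, Prl3d2 and Prl3d3, the placental lactogens of trophoblast giant cells, had values from 0.921 to 2.18 in knockout and from 1.05 to 2.79 in wild type. Prl7d1 (proliferin-related protein), an inhibitor of vessel growth, had a single read, in a wild-type library.

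Genes that process, carry or inhibit granzymes went in both directions. Of 11 measured, 2 rose and 2 fell, against 3.48% and 4.30% of all genes. Their median log2 fold change was 0.15 in the authors' deposited table. Serpinb9b, a serpin related to the granzyme B inhibitor Serpinb9, had 702 in knockout and 287 in wild type, a log2 fold change of 1.29 (authors' DESeq2 adjusted p 2.81e-22) in the authors' deposited table. Ctsh, cathepsin H, an aminopeptidase that can process granzyme B, had 907 in knockout and 286 in wild type, a log2 fold change of 1.66 (authors' DESeq2 adjusted p 1.31e-42) in the authors' deposited table. Serpinb6b, another serpin of the same family, fell to 93.1 in knockout, against 162 in wild type, a log2 fold change of -0.79 (authors' DESeq2 adjusted p 0.0113) in the authors' deposited table. Igf2r, the receptor of proliferins and of mannose 6-phosphate bearing granzyme B, fell to 4277 in knockout, against 5850 in wild type, a log2 fold change of -0.45 (authors' DESeq2 adjusted p 1.72e-18) in the authors' deposited table. The activator Ctsc had 292 in knockout and 247 in wild type, and the inhibitor Serpinb9 256 in knockout and 231 in wild type, and neither passed. The granule proteoglycan Srgn had 6 and 15 reads in knockout and 6 and 4 in wild type. Perforin (Prf1) had no value in the table.

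Substrates and signalling partners were set beside all genes, of which 7.78% were called in either direction. Of 15 granzyme substrates 1 fell, the matrix proteoglycan Dcn, with a log2 fold change of -1.06 in the authors' deposited table, and none rose, while 4 others in either direction had an unadjusted p under 0.05 without passing. Bid, a proapoptotic protein that granzyme B cleaves, had 316 in knockout and 249 in wild type and did not pass the authors' DESeq2 test. Of 13 receptor and signalling genes of prolactin and proliferin, 1 rose and 2 fell. The kinase Mapk3 rose by a log2 fold change of 0.19, and Jak2, the kinase of the prolactin receptor, had -0.22 in the authors' deposited table (authors' DESeq2 adjusted p 0.0153 and 0.0490). Igf2r was the other fall. The prolactin receptor Prlr had 2 and 5 reads in knockout and 4 and 8 in wild type.

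Proliferin was first described among serum-responsive genes. The list of the serum and AP-1 response, which also holds growth factor receptor genes, was divided. Of its 24 genes 4 rose and 4 fell, against 3.48% and 4.30% of all genes. The median log2 fold change of the 24 was 0.054 in the authors' deposited table. Egr3 (0.45), Plaur (0.34), Ier3 (0.26) and Egr1 (0.19) rose, given as log2 fold changes of the authors' deposited table. Mmp3 (-1.31) fell, as did the growth factor receptor genes Pdgfra (-0.61), Pdgfrb (-0.44) and Fgfr1 (-0.23). At an unadjusted p under 0.05, 15 of the 24 differed, in either direction. The share of all genes at that limit was not counted, so nothing is read from this number. None of the listed genes of AP-1 subunits passed the adjusted threshold, and 4 of them, Jun, Junb, Jund and Fosb, had an unadjusted p under 0.05 with a higher value in knockout. Fosb had 229 in knockout and 162 in wild type, Junb 3920 in knockout and 3614 in wild type, and Jund 2137 in knockout and 1937 in wild type. Jun had 2916 in knockout and 2620 in wild type, Fos 488 in knockout and 466 in wild type, Fosl1 1971 in knockout and 2041 in wild type, and Fosl2 4871 in knockout and 4752 in wild type. Of 13 genes of the glucocorticoid receptor and its targets, a receptor that is known to repress proliferin transcription, 2 rose and 3 fell. Sgk1 (0.47) and Dusp1 (0.19) rose and Mt2 (-0.88), Mt1 (-0.54) and Fkbp5 (-0.39) fell, again as log2 fold changes of the authors' deposited table. The receptor gene Nr3c1 itself had 1524 in knockout and 1566 in wild type.

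Markers of mast cells were near the limit of detection. Those of cytotoxic lymphocytes were so apart from Lck and Ptprc, and those of trophoblast apart from 3 genes of higher value. Of 20 markers of cytotoxic T and natural killer cells 8 had a value, summing to 51.6 in knockout and 36.7 in wild type. None passed the authors' DESeq2 test, and 1, the pan-leukocyte gene Ptprc, had an unadjusted p under 0.05. Among those without a value were Cd3d, Cd3e, Cd3g, Ncr1, Klrd1 and Prf1. Lck, a kinase gene of T cells, had 16 and 13 reads in knockout and 15 and 10 in wild type. Nkg7 had 0 and 3 reads in knockout and 2 and 1 in wild type. Of 9 mast cell markers 6 had a value, summing to 16.5 in knockout and 16.7 in wild type, and none passed or had an unadjusted p under 0.05. Kit had 2 and 3 reads in knockout and 6 and 2 in wild type, Ms4a2 5 and 2 in knockout and 8 and 4 in wild type, while Cpa3 and Fcer1a had no value. Of 18 trophoblast markers 11 had a value and 2 fell, the keratin genes Krt8 and Krt18, which other epithelia also express. Krt18 had 75.6 in knockout and 260.4 in wild type, Krt8 7.48 in knockout and 98.0 in wild type, and Syna 20.1 in knockout and 16.04 in wild type. All 11 summed to 118 in knockout and 388 in wild type.

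Most macrophage markers were higher in knockout, the direction for which the members had been selected. Of 16, 10 rose and none fell, against 3.48% and 4.30% of all genes. Their median log2 fold change was 1.54 in the authors' deposited table, and their values summed to 2016 in knockout and 702 in wild type. Lyz2, a lysozyme gene, had 947 in knockout and 148 in wild type. Ptprc, which all leukocytes express, did not pass (authors' DESeq2 adjusted p 0.0640), with 21 and 16 reads in knockout and 3 and 3 in wild type. The macrophage gene Adgre1 had 23 and 31 reads in knockout and 2 and 7 in wild type. The other markers that did not pass were Csf1r, with 257 in knockout and 245 in wild type, Mrc1, with 15.9 in knockout and 11.4 in wild type, C1qa, with 7.30 in knockout and 3.47 in wild type, C1qb and Aif1. C1qb had 3 and 1 reads in knockout and 3 and 8 in wild type, and Aif1 0 and 2 in knockout and 3 and 3 in wild type, both lower in knockout. Fibroblast identity genes mostly went the other way, with 10 of 16 falling and 1, Thy1, rising. The log2 fold change of Thy1 was 1.27 in the authors' deposited table, and the falls ran from -0.12 for Vim to -2.23 for Postn. The part of either cell type in the granzyme and proliferin values was not tested.

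**Figure D4:**
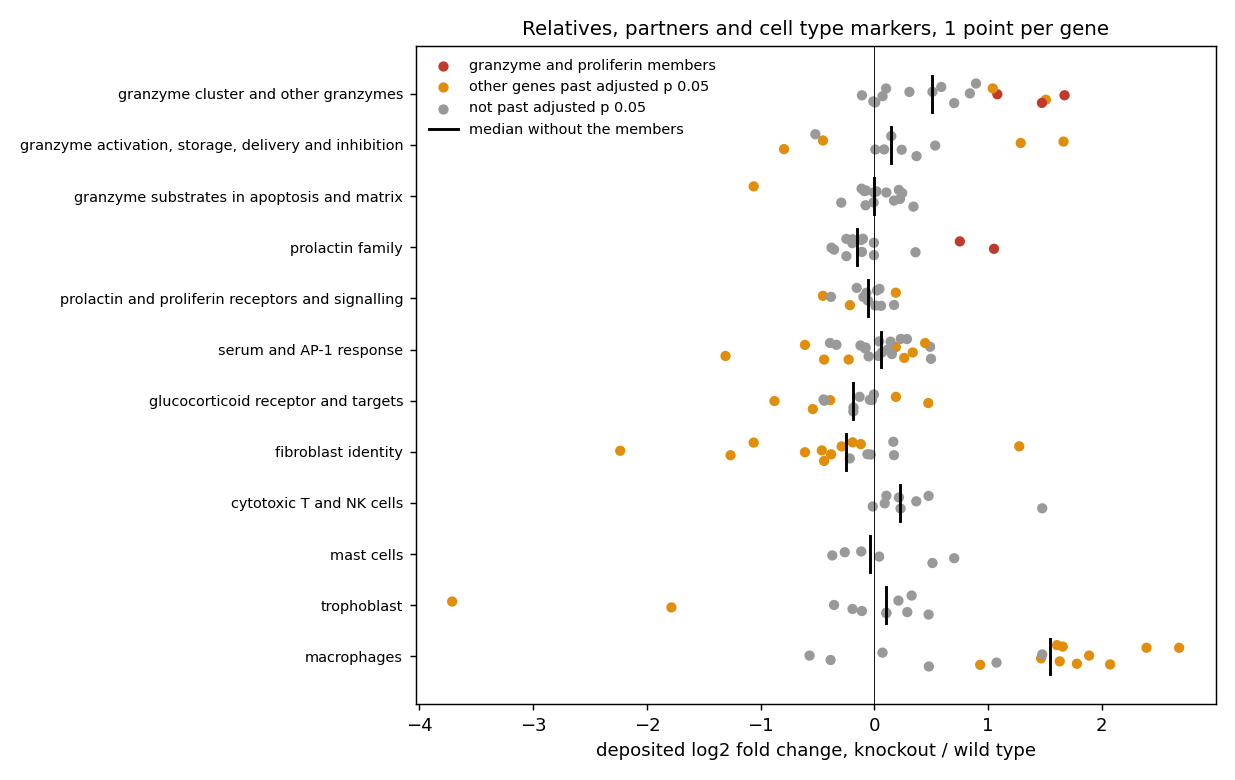
Deposited log2 fold change (knockout over wild type) of each measured gene, 1 row of points per list, with members in red, other genes past an adjusted p of 0.05 in orange and the median of the non-members as a black bar. The bar lies at 0.51 for the granzyme cluster, -0.15 for the prolactin family, -0.25 for fibroblast identity and 1.54 for macrophages.

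For each member the gene most like it was taken as the nearest in the log2 values of knockout and wild type, a likeness over only 2 values. These were Arhgap36 for Gzmc (80.2 in knockout and 28.5 in wild type), Eya2 for Gzmd (380 and 119, in the same order), Igfbp2 for Gzme (1665 and 1009), Tmem8b for Prl2c2 (72.7 and 37.8) and Hook2 for Prl2c3 (175 and 110.5). The distances ran from 0.063 for Hook2 to 0.25 for Igfbp2 on the log2 scale, so Gzme had the least close match of the 5.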

How the data were processed

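RNA of Cbx2 knockout and wild-type fibroblasts was sequenced on a DNBseq platform, about 4.62 Gb per library, per the labels. The submitters' processing notes name RSEM, DESeq2, HISAT2, Bowtie2 and mm10. The role and version of each, and any filter, are not given here by the sources. Each genotype has 1 deposited value per gene, a normalised signal in reads. Their mean is the mean of scaled reads over all 4 libraries, and their log2 ratio equals the deposited log2 fold change, which is shrunken toward 0 at few reads. P-values with their Benjamini-Hochberg adjustment come from the authors' DESeq2 run, and a gene was called at an adjusted p under 0.05 over all 17441 genes. With no counts per library in the table, no count model was fitted.

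Standard errors were implied from each fold change and its p-value. Whole reads were recovered as the single set of reads in the 4 libraries whose scaled mean matched the deposited one within 6e-09. They are the whole numbers behind the deposited values. How reads shared by near-identical copies were assigned in them is not known. For Prl2c3, 16 sets matched within 6e-08, and the one inside bounds on fold change and library ratio was taken. Recovered size factors were 1.034 and 1.031 in knockout and 1.007 and 0.935 in wild type. Which library is replicate 1 is not known. Among 516 genes with a mean of 40 to 60, 100% had exactly 1 set, and 8% of decoys near the mean of Prl2c2 had any. The recovery was tested on simulated data. Gene identifiers of 17400 genes matched RefSeq (GRCm38.p6, the assembly of mm10). Upstream windows were aligned with Biopython 1.88. Python 3.11.15, pandas 2.3.3 and scipy 1.17.1 were used.

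Members and lists were chosen with earlier results of these data known. Named genes are the members, the measured granzyme, mast cell protease and prolactin genes, called genes of the other lists with a few of known role, and the nearest gene to each member. Gpr137b, Gm5801 and the macrophage and lymphocyte genes with reads given were named after their values were seen.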

Additional observations from a re-analysis of the deposited data

How the results depend on the processing

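Recentring on the median of all genes or rescaling by the column totals used a shift of 0.0036 or -0.039 on the log2 scale. All 5 members kept a higher value in knockout and their adjusted p under 0.05. Shifts of that size are far smaller than the members' rises of 0.75 to 1.67. The members were also selected on these values, so nothing is read from that outcome. At an adjusted p under 0.01, 3 of the 5 were called, and restricted to genes whose mean reached the median of all genes (230), 2 were, Gzmd and Gzme, since the other members have lower means. The share of all genes called was not counted at either setting, so nothing is read from these counts. Of 99 non-member genes in the pathway lists, 11 rose and 11 fell, against 3.48% and 4.30% of all genes. With a log2 fold change of at least 1 also required, 4 rose and 2 fell, where 1% of all genes rose. Leaving out each library in turn gave log2 ratios of recovered reads of 1.52 to 1.80 for Gzmc and 0.82 to 1.68 for Prl2c2. For Prl2c3 the range was 0.67 to 0.91. Its set of reads was picked by bounds on fold change and library ratio, which also limit this range, so nothing is read from it. With the wider families summed, the log2 ratio was 1.12 for granzymes (1.18 for the members) and 0.82 for Prl2c genes (0.84 for the members). No paired analysis was possible because the table gives 1 value per genotype and the recovered reads carry no replicate number. Gzmb, Gzmg, Gzmn and Prl2c5 had 1 to 8 reads per genotype, and what difference that depth could show was not tested.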

Other observations

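The annotation terms that the members carry in the authors' deposited table were examined after the values were seen. Of 120 other genes annotated with serine-type endopeptidase activity 3 rose and 8 fell, and the 3 were Cma2, Ctsh and Mcpt8, all described above. Of 15 other genes annotated with cytolysis 3 rose (Lyz1 and Lyz2, the lysozymes, and Serpinb9b) and 1 fell (Mmd). Of 72 other genes annotated with secretory granule 3 rose and 1 fell, and of 111 annotated with growth factor activity 7 rose and 11 fell. Hormone activity, a term of both proliferins, had 59 other genes, of which 2 rose (Adm, the vasodilator adrenomedullin, and the growth factor Igf2) and 3 fell (Cck, Inhba and Stc1). Of 82 other genes annotated with positive regulation of angiogenesis 13 rose, among them the placental growth factor Pgf and Angpt2, and 12 fell, among them the receptor gene Flt1 and Hgf. Of all genes 3.48% rose and 4.3% fell. The median log2 fold change was 0.033 for the serine-type endopeptidases and -0.017 for the angiogenesis genes in the authors' deposited table.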
